A study of Sus scrofa with 6 samples.

Results

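Some genes give rise to many different circular RNAs, and the question here is how such a gene divides its output among them and whether the leading circle changes as the boar testis matures. The genes described are 70 host genes that each had 8 to 20 exonic circular RNAs (circRNAs) and no intronic one (ciRNA) in the circRNA expression table. They were taken from 659 genes with an exonic circRNA, among 1861 genes in the table. In all, 84 genes had 8 to 20 exonic circRNAs; 7 of these also had a ciRNA and 7 others were on a list of genes left out by name. The 70 hosts carried 757 of the 2552 exonic circRNAs of the table, which is 29.7%, and 30.4% of the exonic reads. Of the hosts, 46 lay on chromosome 13, 14 on chromosome 8, 9 on chromosome 7 and 1 on chromosome 12. The table lists 11 of them by Ensembl identifier; 10 of these were paired with a symbol and are named by it, and ENSSSCG00000022633 was not.

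A circRNA forms when the splicing machinery joins the end of an exon (the donor) back to the start of the same or an earlier exon (the acceptor), which closes the exons between into a ring without free ends. A gene with many exons can therefore make many rings, some sharing an acceptor and some a donor, and the choice among them is called alternative back-splicing. The testis is rich in circRNAs, and between early life and sexual maturity its tubules go from holding mainly Sertoli cells and early germ cells to holding every stage up to sperm.

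The samples were testes of Landrace boars in 2 groups, Young_D30 (30 days old) and Adult_D210 (210 days old, sexually mature), with 3 boars and 3 libraries in each group and no treatment. Total RNA was depleted of ribosomal RNA, digested with RNase R to remove linear RNA and sequenced, and the authors counted reads across each back-splice junction. Young_D30 replicates 1, 2 and 3 held 33091, 18445 and 18618 back-splice reads in the table, of which 9347, 5487 and 5668 fell on the 70 hosts. Adult_D210 replicates 1, 2 and 3 held 23583, 14305 and 12701 reads, of which 6579, 3897 and 3860 fell on the hosts. None of 37 marker genes of testis cell types looked up in the table hosted an exonic circRNA (8 hosted a ciRNA), so the make-up of the tissue could not be read from these counts. Each direction given between ages rests on the group names of the deposited columns, which could not be checked from the counts. The paper's text lists circRNA12223 of UMODL1 among upregulated circRNAs, whereas under these names it was lower in Adult_D210. The cause of this difference was not tested, and other directions that the paper states were not compared here.

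The table sets a limit on every share given here. Its entries run in the text order of their names: the ciRNAs are numbered from 1 to 1798 and cover 19 chromosomes, whereas the exonic names all begin with circRNA1, end at circRNA12294 and cover 4 chromosomes, and exonic circRNAs with other names were not analysed here. Each of the 2552 exonic circRNAs had a read in Young_D30 replicate 1, against 456 of the 1798 ciRNAs. Of the 757 circRNAs of the hosts, 174 (23.0%) were read in that library alone. The libraries of Young_D30 replicates 2 and 3 and Adult_D210 replicates 1, 2 and 3 held reads of 374, 379, 381, 317 and 324 of the 757. A share therefore means a share of the listed exonic reads of a host, and a circRNA absent from Young_D30 replicate 1 has no place in it. The same holds for host totals and for the direction of change, since a ring read only in the adult testis cannot appear.

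The number of circRNAs chose the hosts, so it is no finding that they have many. With 8 circRNAs there were 16 member hosts, with 20 reads (GFM1) to 2253 reads (TBCD), and with 7 there were 20 genes, all outside the range and 18 of them not on the list of genes left out by name, such as NAA15 with 440 reads. The members with the most circRNAs were USP4 with 18 and APP with 17, and the nearest genes above the range were YEATS2 with 21 and ANKRD28 with 24. The median member host had 11 circRNAs. The median circRNA of these hosts had 11 reads over the 6 libraries, 4 exons and a genomic span of 10647 nucleotides, with spans from 158 to 216394. Ends were used repeatedly: 674 of the 757 circRNAs (89.0%) shared an acceptor or a donor with another circRNA of the same host. Most rings of these hosts are therefore not independent units. The rule set many rings per host, and the percentage with a shared end was not computed for other hosts.

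The dominant circRNA of a host was the one with the highest mean share of the host's exonic reads over the libraries. It was assessed where every library held at least 10 exonic reads of the host, which left 48 of the 70 hosts. Among the other 22, an Adult_D210 library held the fewest reads in 20, tied with a Young_D30 library in GFM1, HPS3 and TRIP11. In 7 of the 22 there was no read at all in some library. In the 48 assessed hosts 1 ring usually stood out. The median host gave 42.4% of its reads to its dominant circRNA (quartiles 36.8% and 54.8%, range 21.5% to 85.0%) and 19.8% to the next. The dominant circRNA took more than 50% in 15 hosts and less than 30% in 4. In 21 of the 48 hosts the same circRNA had the most reads in all 6 libraries, in 12 it led in 5, and in 7 it led in at most 3. Together the 48 dominant circRNAs took 16287 of 32134 reads (50.7%). The number of circRNAs of a host and its dominant share had a Spearman correlation of 0.0033 across the 48 hosts. These hosts share their libraries, are not replicates and span only the 8 to 20 circRNAs that the rule set. Outside that range the median dominant share was 62.5% in the 63 assessed hosts with 2 to 7 circRNAs. It was 28.0% in the 7 assessed hosts with over 20. The dominant circRNA led in all 6 libraries in 28 of those 63 hosts and in 3 of those 7. A leader kept in all 6 libraries is thus not particular to the members.

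**Figure D1:**
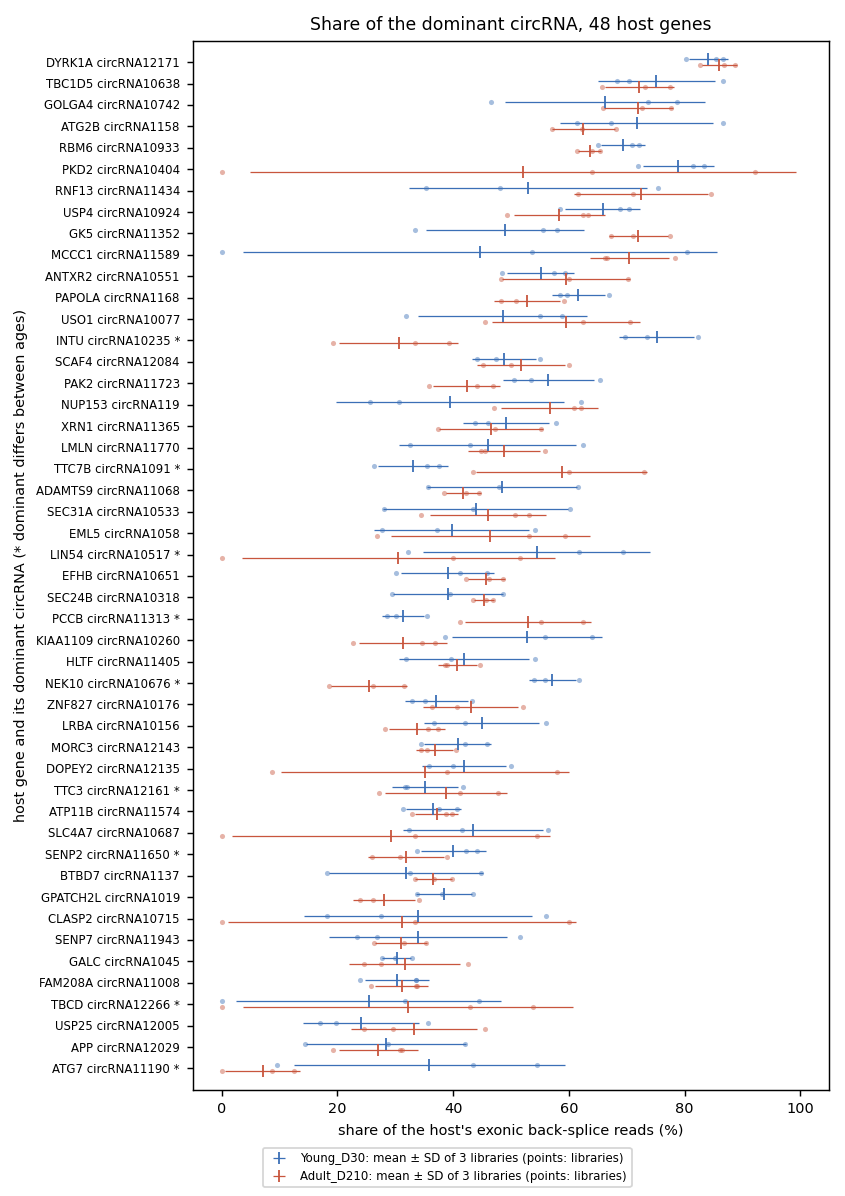
Share of each host's exonic back-splice reads (%, horizontal axis) taken by its dominant circRNA, for the 48 assessed hosts (vertical axis), with points for libraries and ticks with bars for the mean ± SD of 3 libraries in Young_D30 (blue) and Adult_D210 (red). DYRK1A leads at 85.0% with little spread, and the hosts marked by an asterisk had different dominant circRNAs at the 2 ages.

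Across libraries the median dominant share was 37.4%, 47.7% and 50.7% in Young_D30 replicates 1, 2 and 3 and 43.5%, 42.3% and 46.1% in Adult_D210 replicates 1, 2 and 3. Young_D30 replicate 1 was the lowest. In that library the median host had reads of 11 circRNAs, against 5 and 6 in the other Young_D30 libraries and 7, 6 and 6 in the Adult_D210 libraries, since each listed circRNA has a read there. The adult medians lay above that library and below the other young ones. Leaving out each library in turn gave a median share between 41.7% and 44.7%.

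**Figure D2:**
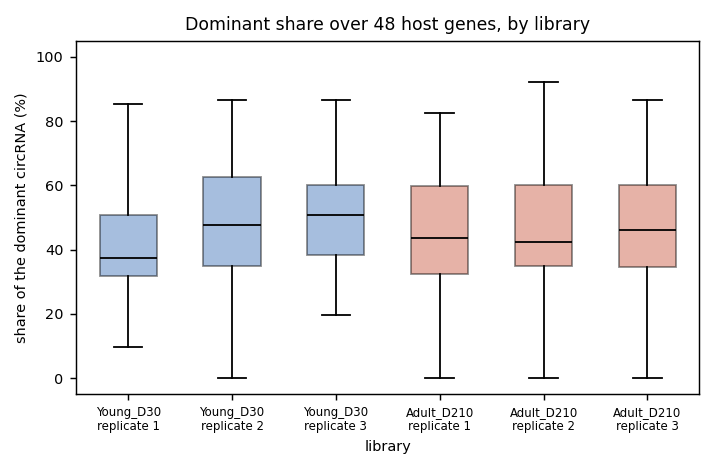
Share of the dominant circRNA (%, vertical axis) over the 48 assessed hosts in each of the 6 libraries, as boxes of median and quartiles with whiskers to the lowest and highest host. Young_D30 replicate 1 has the lowest median, 37.4%, and the 3 Adult_D210 medians lie between 42.3% and 46.1%.

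The hosts with the most concentrated output kept the same leader in every library. DYRK1A, a protein kinase of the DYRK family, gave 448 of 525, 260 of 300 and 297 of 370 reads to circRNA12171 in Young_D30 and 181 of 219, 148 of 167 and 137 of 158 in Adult_D210. That is a mean share of 84.1% ± 3.4 (SD, n = 3) at 30 days and 86.0% ± 3.1 (SD, n = 3) at 210 days, and the next of its 15 circRNAs took 2.5%. This ring joined 2 exons over 54747 nucleotides (chr13:211155143-211209889, plus strand, Sscrofa10.2). TBC1D5, a regulator of Rab GTPases in endosome transport, gave circRNA10638 a mean of 75.1% ± 10.1 (SD, n = 3) in Young_D30 and 72.1% ± 6.0 (SD, n = 3) in Adult_D210. GOLGA4, a golgin that tethers vesicles at the trans-Golgi, gave circRNA10742 66.3% ± 17.3 (SD, n = 3) and 72.0% ± 5.9 (SD, n = 3). In all 3 hosts the change between ages was smaller than the spread among libraries of the young group.

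ATG2B moves lipids to growing autophagosomes, and its circRNA1158, a ring of 2 exons and 356 nucleotides of genome, took 71.7% ± 13.2 (SD, n = 3) of its reads in Young_D30 and 62.5% ± 5.5 (SD, n = 3) in Adult_D210. RBM6, an RNA-binding protein of splicing, was the host with the most reads, 3315. Its circRNA10933 had 346, 388 and 393 reads in Young_D30 and 487, 303 and 290 in Adult_D210, a share of 69.4% ± 3.8 (SD, n = 3) and then 63.6% ± 2.0 (SD, n = 3). Its next circRNA, circRNA10936, used the same donor, and had 85, 76 and 64 reads and then 126, 104 and 111. This change was not called, with a log2 fold change of 0.95, under the limit of 1. Both rings of RBM6 were present in every library.

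At the other end stood hosts whose leader held a small share. The lowest mean share was that of ATG7, the E1-like enzyme of autophagy, whose circRNA11190 took 21.5% over the 6 libraries and led in 2 of them. APP, the amyloid precursor protein, spread its output over 17 circRNAs: circRNA12029 took 27.8% and circRNA12026, with the same acceptor, 22.1%. USP25, a deubiquitinase, gave 28.7% to circRNA12005 and 16.7% to circRNA12004, again from the same acceptor. FAM208A, a subunit of the HUSH silencing complex, gave 30.7% to circRNA11008 and 25.1% to circRNA11006, which also shared an acceptor, and circRNA11008 led in 5 of the 6 libraries. In these 3 hosts the leading pair differed only in the donor that closed the ring.

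TBCD, a cofactor of tubulin folding, was uneven among its libraries. Its circRNA12266 had 161, 0 and 133 reads in Young_D30 and 363, 0 and 154 in Adult_D210, beside host totals of 507, 74 and 299 and of 846, 241 and 286. The 2 zeros fell in replicate 2 of each group, and a count of 0 allows a share of up to 4.05% in the young library and 1.24% in the adult one. Its mean share of 28.8% is thus an average over libraries in which it led and libraries in which it was not read. PAPOLA, the poly(A) polymerase, came next to RBM6 in reads with 3007, and circRNA1168 held 61.6% ± 4.5 (SD, n = 3) of them in Young_D30 and 52.8% ± 5.7 (SD, n = 3) in Adult_D210. ZNF827, a zinc finger protein of chromatin, had 1141 reads, of which circRNA10176 held 37.1% ± 5.4 (SD, n = 3) and 43.0% ± 8.2 (SD, n = 3).

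The dominant rings were compact. They had a median of 3 exons and a span of 4983 nucleotides, against 4 exons and 10555 nucleotides for the 486 other circRNAs of the same hosts. In 36 of the 48 hosts the dominant circRNA had fewer exons than the median of the host's other circRNAs, and in 35 it spanned less. The intron after the ring was longer than the median of the others in 30 of 48 hosts, and the intron before it in 19 of 47. It began at the most upstream listed acceptor in 14 hosts and ended at the most downstream listed donor in 7. It shared an end with another circRNA in 44. No test was made over hosts.

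Hosts were also grouped by words in the deposited gene annotation, which does not place every gene where its function would. The 10 hosts found by words on RNA had a median dominant share of 50.3% in the 9 assessed. The 9 found by kinase or phosphatase activity, which include the cation channel PKD2, had 60.5% in the 5 assessed. The 13 found by words on vesicle trafficking had 43.6% in 10, and the 13 found by words on cytoskeleton and junctions 45.2% in 8. Words on ubiquitin found 7 hosts, with 39.1% in the 6 assessed, words on chromatin and transcription 6 hosts, with 38.6%, and words on cilium and centrosome 5 hosts, with 47.6% in the 4 assessed. The 31 hosts with no such word, among them ZNF827 and LIN54, had 42.1% in 19. The words for DNA repair and meiosis found no host, although ATR, the DNA damage checkpoint kinase, and HLTF, a helicase of DNA damage tolerance, are members. A host may stand in several of these lists, and no list was tested.

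A switch was counted where the circRNA with the highest mean share in Young_D30 was not the one with the highest mean share in Adult_D210. Most hosts kept their leader: 39 of the 48 had the same dominant circRNA at both ages and 9 switched (18.8%). Over all 141 assessed hosts of the table with at least 2 exonic circRNAs, 20.6% switched, so the members stood near that background. In the 63 assessed hosts with 2 to 7 circRNAs, 13 switched. A full switch, in which the young leader had the most reads in all 3 young libraries and the adult leader in all 3 adult ones, occurred in NEK10 and TTC7B, 2 hosts (4.17%, against 4.26% over the 141). Without Adult_D210 replicate 3 there were 16 switches and 5 full ones, but among 52 assessed hosts. Of the switches gained there, those of ACAD11, ATP13A3, DOCK3 and EPHA3 were in hosts not assessed with all libraries. Without Young_D30 replicate 2 there were 4 full ones among 49 assessed hosts. Leaving out any of the other libraries gave 9 to 12 switches and 2 or 3 full ones. In whole testis, fewer cells of a type and less RNA per cell cannot be told apart, for shares as for totals.

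The share of the dominant circRNA moved in either direction equally often. It was higher in Adult_D210 in 24 hosts and lower in 24, with a median change of -0.26 percentage points and a range from -44.6 to 25.7. In 31 hosts it moved by less than 10 points. In 7 hosts (14.6%) the 3 adult shares lay wholly apart from the 3 young ones, against 19.9% over the assessed hosts of the table. Of these 7 hosts NEK10 was also called by the isoform usage test described with it. The adult shares were the higher ones in GK5, PCCB and TTC7B and the lower ones in INTU, KIAA1109, NEK10 and PAK2. For PAK2, a kinase of the actin cytoskeleton, circRNA11723 fell from 56.4% ± 7.9 (SD, n = 3) to 42.3% ± 5.8 (SD, n = 3) and still led in all 6 libraries; KIAA1109 and PAK2 are named after their values were seen.

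NEK10, a NIMA-related kinase of motile cilia, showed the clearest exchange. In Young_D30 its leader circRNA10676 had 103 of 167, 34 of 63 and 48 of 86 reads, and in Adult_D210 it had 11 of 42, 6 of 19 and 5 of 27. The shorter circRNA10675 had 1, 0 and 5 reads in Young_D30 and 25, 12 and 13 in Adult_D210, where it led in all 3 libraries. The 0 of 63 reads in Young_D30 replicate 2 allow a share of up to 4.76%. The mean share of circRNA10676 went from 57.2% ± 4.0 to 25.4% ± 6.6 (SD, n = 3 each), and that of circRNA10675 from 2.1% ± 3.2 to 56.9% ± 7.8 (SD, n = 3 each), with no overlap between ages for either.

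The NEK10 rings end at the same donor and differ in their acceptor. The young leader held 5 exons (chr13:15427699-15457207, minus strand, Sscrofa10.2) and the adult leader 3 exons of the same stretch (chr13:15427699-15440865). The acceptor of the young leader closed 6 of the 9 listed NEK10 circRNAs. Besides the leader, circRNA10677 went from 32, 11 and 11 reads to 0, 1 and 2, and circRNA10674 from 15, 4 and 19 to 0 in every adult library, at least 10.1-fold lower with a floor of 3 reads over the adult group. For circRNA10677, with 3 adult reads, the ratio of young to adult was 14.4 (95% counting interval 4.66 to 71.9, exact Clopper-Pearson). For another ring from this acceptor a fall was less clear: circRNA10679 had 6, 13 and 2 reads in Young_D30 and 5, 0 and 7 in Adult_D210. Measured against its host, which is not the ratio of reads given above, circRNA10679 had a positive log2. That change was not called (edgeR isoform usage test, log2 0.96, SE 0.97, adjusted p 0.930).

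**Figure D3:**
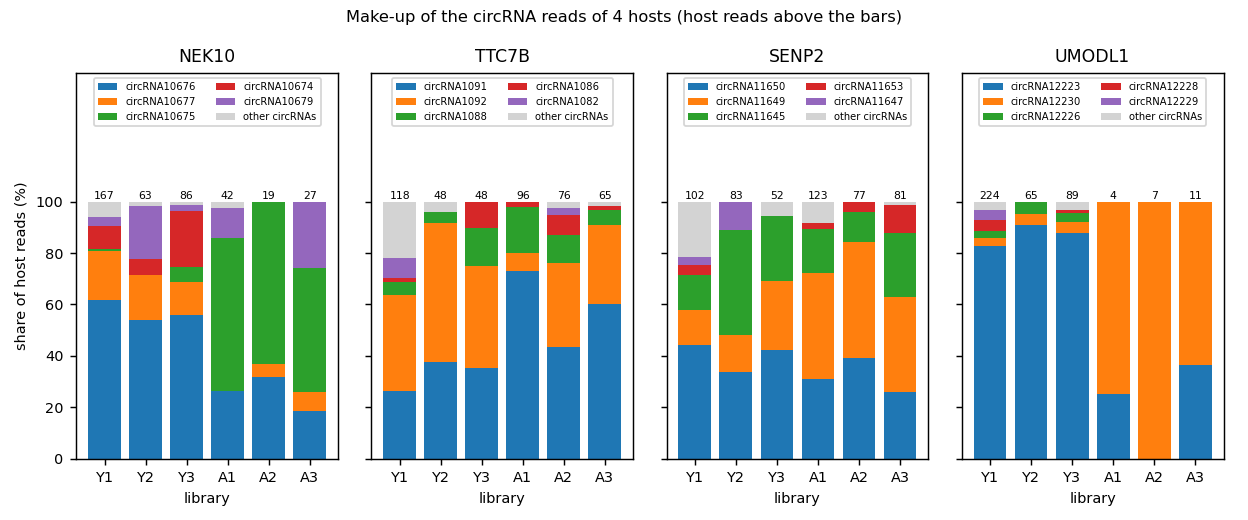
Make-up of the exonic back-splice reads of NEK10, TTC7B, SENP2 and UMODL1 (share of host reads in %, vertical axis) in each library (Y, Young_D30; A, Adult_D210; replicates 1 to 3), with host reads above the bars and the 5 circRNAs with the most reads of each host in colour. In NEK10, circRNA10676 leads in the young libraries and circRNA10675 in the adult ones; UMODL1 has only 4, 7 and 11 adult reads.

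Whether the make-up of a host's output differed between ages, apart from its total, was tested with edgeR's isoform usage test over the 255 hosts of the table with at least 2 tested circRNAs. At an adjusted p (Benjamini-Hochberg) under 0.05 it called 2 of the 65 member hosts tested, and 0.784% of all hosts, so that both calls of the table were members. CBLB, CHL1, GFM1, HPS3 and TRIP11 were not tested. The calls were NEK10 (adjusted p 0.000711) and UMODL1 (adjusted p 0.0417). At an unadjusted p under 0.05 there were 9 of the 65 (13.8%) and 24 of all 255 (9.41%). By circRNA, 2 of 395 in the members and 0.186% of the 1075 in the table were called: circRNA10675 of NEK10 rose against its host by a log2 of 4.70 (SE 0.82, adjusted p 6.0e-04), and circRNA12230 of UMODL1 by 4.22 (SE 0.98, adjusted p 0.0440). Both were higher in share in 3 of 3 adult libraries than in any young one. Without Young_D30 replicate 1, edgeR called 0 hosts, with NEK10 at an adjusted p of 0.0949, UMODL1 at 0.116 and 11 member hosts at an unadjusted p under 0.05. NEK10 was called without each of the other libraries in turn (0.000693 to 0.0454). The usage log2 of circRNA10675 was 4.0 without Young_D30 replicate 1 and 6.55 without Young_D30 replicate 3. UMODL1 was not called without Young_D30 replicate 2 or 3 (0.0511 and 0.141) or Adult_D210 replicate 1, 2 or 3 (0.172, 0.294 and 0.225).

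UMODL1, which encodes a protein with a zona pellucida domain, was too low in the adult libraries to be assessed for a switch. Its circRNA12223 had 185 of 224, 59 of 65 and 78 of 89 reads in Young_D30, and 1 of 4, 0 of 7 and 4 of 11 in Adult_D210. Its circRNA12230 had 7, 3 and 4 reads and then 3, 7 and 7. The 2 rings are separate parts of the gene, chr13:215770730-215777403 and chr13:215811958-215813857 on the plus strand, and the acceptor of the young leader closed 6 of the 8 listed rings. The reads of circRNA12230 were alike in number at both ages, while the reads of the host went from 378 over the young group to 22 over the adult group.

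TTC7B, a subunit of the complex that holds phosphatidylinositol 4-kinase at the plasma membrane, made the other full switch. Its circRNA1092 had 44 of 118, 26 of 48 and 19 of 48 reads in Young_D30 and 7 of 96, 25 of 76 and 20 of 65 in Adult_D210. Its circRNA1091 had 31, 18 and 17 reads and then 70, 33 and 39. The mean share of circRNA1092 went from 43.7% ± 9.2 to 23.7% ± 14.2 and that of circRNA1091 from 33.1% ± 6.0 to 58.8% ± 14.8 (SD, n = 3 each). Both rings start at the same acceptor, and the adult leader runs on to a further donor, with 4 exons (chr7:118961846-118978888, minus strand, Sscrofa10.2) against 2 (chr7:118972758-118978888). The exchange was smaller than in NEK10, since the adult leader already had 31 reads beside 44 of the young leader in Young_D30 replicate 1, and the usage test gave an adjusted p of 0.908.

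**Figure D4:**
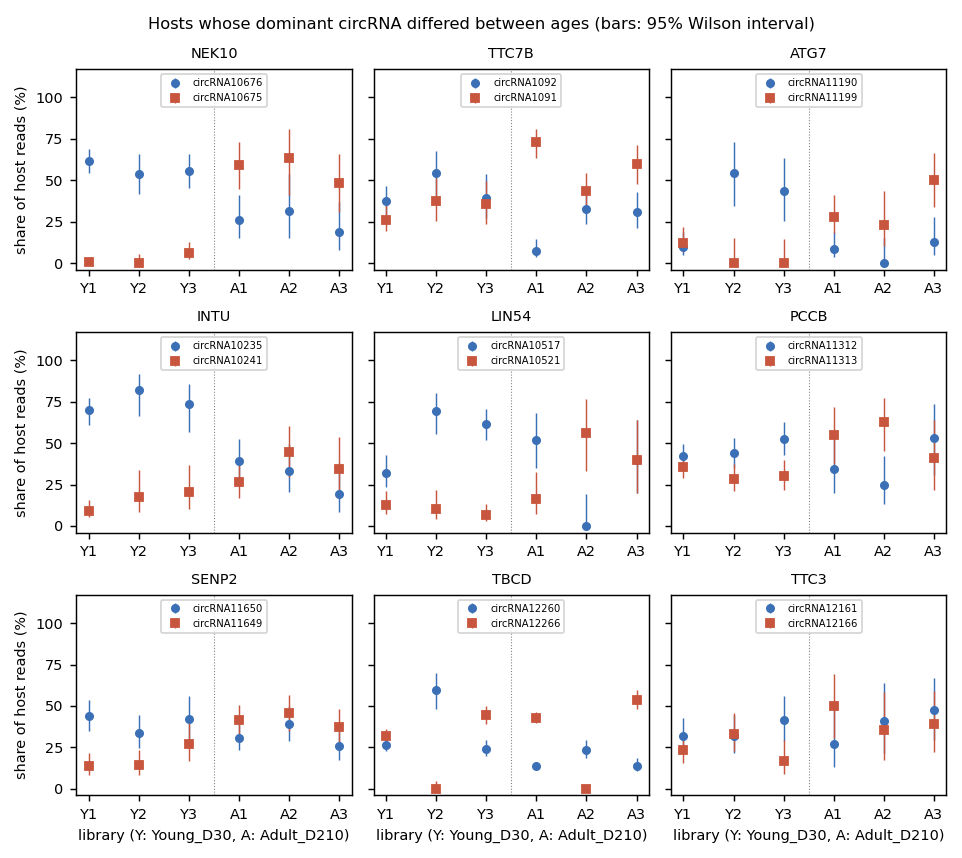
Shares of host reads (%, vertical axis) of the young leader (blue circles) and the adult leader (red squares) in each library (Y, Young_D30; A, Adult_D210; replicates 1 to 3) of the 9 hosts that switched, with 95% Wilson intervals that cover counting error only. NEK10, TTC7B and SENP2 show the same order of both leaders in all 3 libraries of each age, with overlapping intervals in some of these libraries.

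The 7 other switches were not full ones. In 3 of the 9 switches the leaders shared their acceptor (TTC7B, PCCB and SENP2), in 2 their donor (NEK10 and ATG7), and in 3 they did not overlap (INTU, TBCD and TTC3). SENP2, a protease that matures and removes SUMO, had 45, 28 and 22 reads of circRNA11650 in Young_D30 and 38, 30 and 21 in Adult_D210, while circRNA11649, with 1 exon more from the same acceptor, went from 14, 12 and 14 to 51, 35 and 30. In SENP2 the young leader kept its number and the longer ring overtook it. PCCB, the beta subunit of propionyl-CoA carboxylase, went the other way: circRNA11312 fell from 86, 49 and 49 reads to 10, 8 and 9. Its circRNA11313 had 72, 32 and 28 reads and then 16, 20 and 7. The fall of circRNA11312 was called, and the change of circRNA11313 was not (edgeR quasi-likelihood F test, log2 -1.22, adjusted p 0.125). For ATG7 the leader of 17 exons, circRNA11190, had 7, 12 and 10 reads and then 5, 0 and 4, and circRNA11199, of 6 exons and the same donor, had 9, 0 and 0 and then 16, 5 and 16.

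INTU, LIN54 and TTC3 are described because they switched, and were chosen after their values were seen. INTU, a planar polarity effector needed for cilia, gave 83 of 119, 28 of 34 and 25 of 34 reads to circRNA10235 in Young_D30 and 22 of 56, 12 of 36 and 5 of 26 in Adult_D210. Its share fell by 44.6 points, the largest move of a dominant circRNA over the 6 libraries in the 48 hosts, and the ring consists of 1 exon of 480 nucleotides. In the adult libraries circRNA10241, also 1 exon, had 15, 16 and 9 reads. LIN54, a DNA-binding subunit of the MuvB complex, and TTC3, a ubiquitin ligase, changed leader in the mean with 6 and 6 reads of both leaders in Adult_D210 replicate 3 for LIN54, while for TTC3 the young leader still had more reads in Adult_D210 replicate 2 (7 against 6) and replicate 3 (11 against 9). In 5 of the 9 switching hosts the leader's mean share over the 6 libraries was under 10 points above the next. Several switches rested on 1 library: INTU did not switch without Adult_D210 replicate 3, LIN54 without Adult_D210 replicate 2, where its young leader had 0 of 16 reads (which allows a share of up to 18.8%), TTC3 without Adult_D210 replicate 1 and TBCD without Young_D30 replicate 2.

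The total exonic output of a host, the sum of its back-splice reads, was compared between ages over the 478 hosts with at least 10 reads. A host was called at an adjusted p under 0.05 (edgeR quasi-likelihood F test) with a change of 1 or more on the log2 scale. Of the 70 hosts 23 were called (32.9%), 7 higher in Adult_D210 (10%) and 16 lower (22.9%), against 22.4%, 7.74% and 14.6% over all hosts tested. The median log2 fold change was -0.20 over the members and -0.29 over all hosts. These changes are relative to the back-splice reads of the table. When each library was scaled by its mapped reads instead, the medians were -1.03 and -1.08, 1 host was called higher and 21 lower. Every listed exonic circRNA has a read in Young_D30 replicate 1, so these directions are conditioned on that library. With it left out of both filter and test, 7 were called higher and 14 lower. That run does not lift the condition, since circRNAs absent from that library stay unlisted. Without Adult_D210 replicate 1, 4 were called higher, and without Adult_D210 replicate 2, 10 were called lower.

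**Figure D5:**
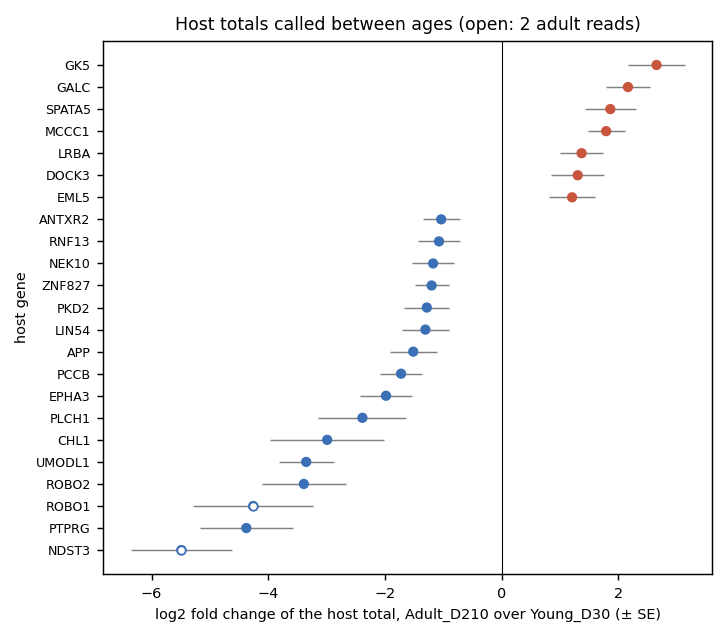
Log2 fold change of the total exonic back-splice reads, Adult_D210 over Young_D30 (horizontal axis, ± SE from edgeR, 3 libraries per group), for the 23 called hosts (vertical axis), scaled to the back-splice reads of the table. GK5 has the highest value, 2.65, and open circles mark NDST3 and ROBO1, which had 2 adult reads each, so that their fitted values are imprecise.

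Among the called hosts that rose, 5 had the smallest p. GALC, the lysosomal galactosylceramidase, had 76, 18 and 10 reads in Young_D30 and 146, 87 and 54 in Adult_D210 (log2 2.16, SE 0.38, adjusted p 1.6e-05, and a log2 of 2.99 without Young_D30 replicate 1). MCCC1, a subunit of methylcrotonyl-CoA carboxylase, had 138, 28 and 56 and then 237, 115 and 123 (log2 1.79, SE 0.32, adjusted p 2.2e-05). In both hosts the raw reads of Young_D30 replicate 1 lay above those of the lowest adult library. These reads are not scaled for library size, and that young library held the most reads in the table. GK5, a glycerol kinase family member, went from 81, 21 and 36 reads to 242, 257 and 49 (log2 2.65, SE 0.48, adjusted p 0.00120), with Adult_D210 replicate 3 far below the others and no call when Young_D30 replicate 1 was left out of the test (log2 2.91, adjusted p 0.0783), but a call when it was left out of the filter too (log2 2.92, adjusted p 4.6e-06). Its leader circRNA11352 took 49.0% ± 13.6 (SD, n = 3) of the reads at 30 days and 72.0% ± 5.1 (SD, n = 3) at 210 days, and the usage test did not call it (adjusted p 1).

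SPATA5, an AAA ATPase of ribosome maturation, had 29, 23 and 5 reads and then 72, 33 and 30 (log2 1.86, SE 0.43, adjusted p 8.1e-04). LRBA, a BEACH protein of vesicle transport, had 71, 19 and 25 and then 99, 42 and 46 (log2 1.37, SE 0.37, adjusted p 0.00387), and it was not called without Adult_D210 replicate 1 (adjusted p 0.0810). Scaled by mapped reads, GALC, MCCC1, SPATA5 and LRBA stayed higher in Adult_D210 but were not called, with log2 values of 1.29, 0.91, 1.07 and 0.52. GK5 was the host called under that scaling too.

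Among the called hosts that fell, the 5 with the smallest p lost most of their reads. UMODL1 went from 224, 65 and 89 reads to 4, 7 and 11 (log2 -3.35, SE 0.47, adjusted p 2.3e-07), with every adult library below every young one. Most of its young reads were of circRNA12223, which the paper's text lists among upregulated circRNAs. PTPRG, a receptor tyrosine phosphatase, went from 114, 14 and 24 to 0, 3 and 1 (log2 -4.38, SE 0.80, adjusted p 2.5e-05). ROBO2, a receptor of SLIT proteins, went from 62, 25 and 19 reads to 1, 3 and 2 (log2 -3.39, SE 0.72, adjusted p 2.4e-04). NDST3, which sulfates heparan sulfate chains, went from 106, 12 and 51 to 1, 0 and 1, and the ratio of young to adult was 53.8 (95% counting interval 14.7 to 448, exact Clopper-Pearson; adjusted p 2.2e-06). PCCB went from 203, 112 and 93 to 29, 32 and 17 (log2 -1.72, SE 0.37, adjusted p 2.4e-04). For all 5 of these hosts the lowest young library held more reads than the highest adult library, and the call was made without each library in turn. The size moved with single libraries in UMODL1 (log2 -3.94 without Adult_D210 replicate 3) and in PTPRG (-3.46 without Young_D30 replicate 1, -3.62 without Adult_D210 replicate 1 and -5.69 without Adult_D210 replicate 2).

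Single circRNAs were tested in the same way, over 1341 exonic and intronic circRNAs with at least 10 reads. Of the 400 member circRNAs tested, 27 in 21 hosts were called (6.75%), against 8.28% of all circRNAs and 8.58% of exonic ones. Of these 8 were higher in Adult_D210 (2%, against 3.46% of exonic circRNAs) and 19 lower (4.75%, against 5.12%). The median log2 fold change was -0.42 in the members (the same with circRNAs without adult reads held at their bound) and -0.42 over all circRNAs tested, and -0.87 and -0.90 when scaled by mapped reads, where 1 member circRNA was called higher and 19 lower. The direction counts are conditioned on a read in Young_D30 replicate 1. With that library left out of both filter and test, 10 were higher and 8 lower. That run also had fewer young libraries, and it does not lift the condition, since circRNAs absent from Young_D30 replicate 1 stay unlisted. The counts depended on single libraries: there were 11 calls (7 higher in Adult_D210, 4 lower) without Young_D30 replicate 1 and 10 (3 higher, 7 lower) without Young_D30 replicate 3. Without Adult_D210 replicate 1 there were 7 (2 higher, 5 lower), and without Adult_D210 replicate 2 there were 10 (2 higher, 8 lower). Without Young_D30 replicate 2 there were 4 calls higher in Adult_D210. Of the 27, 7 had no read in any adult library and 4 had 1 to 3 adult reads. A host total includes the reads of its called rings, and no total without them was compared: 20 of the 27 belonged to a host whose total was called the same way, 6 to a host whose total was not called, and circRNA10675 of NEK10 rose while its host fell.

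The rings that rose included minor ones of the young testis. In SPATA5, circRNA10244 went from 4, 0 and 1 reads to 35, 15 and 15 (log2 fold change 3.9, SE 0.77, adjusted p 0.00392, and a log2 of 5.24 without Young_D30 replicate 1), and it led all 3 adult libraries of that host. In GPATCH2L, a G-patch domain protein, circRNA1018 went from 5, 0 and 3 reads to 23, 16 and 20 (log2 3.18, SE 0.72, adjusted p 0.0101, 0.0552 without Young_D30 replicate 3, and a log2 of 3.80 without Young_D30 replicate 1), beside a leader from the same acceptor, circRNA1019, with 49, 53 and 29 reads and then 35, 26 and 28. The rise of circRNA11649 in SENP2 had a log2 of 1.83 (SE 0.42, adjusted p 0.0115), and it was not called without Adult_D210 replicate 1 (0.0535) or 2 (0.0516).

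Both full switches also had a called rise of the adult leader. For circRNA10675 of NEK10 the log2 fold change was 3.26 (SE 0.87, adjusted p 0.0257), called without Young_D30 replicate 3, where the log2 was 5.09, but not without Young_D30 replicate 1 (0.124) or 2 (0.0671) or Adult_D210 replicate 1 (0.124), 2 (0.0607) or 3 (0.0596). For circRNA1091 of TTC7B it was 1.42 (SE 0.38, adjusted p 0.0289), and not called without Young_D30 replicate 1 (0.0508, but 0.0442 with that library also out of the filter), 2 (0.0739) or 3 (0.109) or Adult_D210 replicate 1 (0.126), 2 (0.0593) or 3 (0.0732). Of the 5 rising rings named here, circRNA10244 was the one still called when scaled by mapped reads.

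Among the rings that fell, leaders of the young testis stood first by p. A leader is by definition the ring with the highest young share, and more reads make a fall easier to call. This order is therefore no finding about leaders. For circRNA12223 of UMODL1 the log2 fold change was -5.50 (SE 0.71, adjusted p 1.4e-04), for circRNA10676 of NEK10 -2.69 (SE 0.47, adjusted p 0.00269) and for circRNA11312 of PCCB -2.39 (SE 0.42, adjusted p 0.00269), and these 3 were called without each library in turn. Of the 5 adult reads of circRNA12223, 4 came from Adult_D210 replicate 3. Without that library the fitted log2 was -7.19, so the size of this fall is imprecise. The paper's text lists circRNA12223 among upregulated circRNAs, which is the opposite direction to that under the deposited group names. In PTPRG, circRNA11043 had 63, 12 and 20 reads in Young_D30 and 0 in every adult library. It was at least 25.3-fold lower with a floor of 3 reads over the adult group (adjusted p 0.00309). Most of its young reads were in replicate 1, and the bound was not computed without that library. The adjusted p was 0.0529 without Young_D30 replicate 1, and 0.0340 with that library also out of the filter. In NDST3, circRNA10295 had 70, 3 and 42 reads and then 1, 0 and 1, a ratio of 45.9 (95% counting interval 12.4 to 384, exact Clopper-Pearson; adjusted p 0.00485), and it was not called without Young_D30 replicate 1 (0.0606, but 0.0350 with that library also out of the filter) or Adult_D210 replicate 1 (0.0821). These counts come from sequencing reads without molecular tags, so intervals and floors cover counting error only.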

How the data were processed

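After Cutadapt and TopHat2, the authors called back-splice junctions by TopHat-Fusion and CIRCExplorer2 and deposited 2 values per circRNA and library: the count of back-splice reads and a signal, SRPBM, which is that count divided by mapped reads and read length. The counts were used here, and mapped reads were recovered from the ratio of both values. Tests used edgeR 4.0.16 in R 4.3.3 (TMM, quasi-likelihood F tests, diffSpliceDGE with Simes p per host), each over the whole table with Benjamini-Hochberg adjustment; alternatives used DESeq2 1.42.0 and limma 3.58.1. Tables and figures used Python 3.11.15, pandas 2.3.3, numpy 2.4.6, scipy 1.17.1 and matplotlib 3.10.9. Members and lists were chosen with earlier results of these data known. Named genes were hosts called for usage, hosts with a full switch, the 5 highest and 5 lowest dominant shares, the 5 hosts with the most reads, and the 5 smallest p per direction among called circRNAs and called host totals. Further hosts are named where stated.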

Additional observations from a re-analysis of the deposited data

How the results depend on the processing

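The log2 values of the named circRNAs and host totals kept their sign under each alternative run. Counted together with isoform usage results, 284 of 330 values kept their side of the threshold, while 46 lost it. With replicate number as a block (replicate block), calls of circRNAs fell from 27 to 6 (1 higher in Adult_D210, 5 lower) and of usage from 2 to 1. The labels pair no young library with an adult one. Deviations of circRNAs from their group mean correlated at 0.051, -0.015 and -0.031 between libraries of the same number. Between libraries of different number they correlated at -0.050 to 0.064. With mapped reads as library size, circRNA calls higher in Adult_D210 were 1, host totals higher 1 and usage calls 1. With Young_D30 replicate 1 left out of both filter and test, 18 circRNAs were called, 10 higher in Adult_D210 and 8 lower (8 and 19 with it), and usage calls were 0 (edgeR; 14 of 61 hosts at an unadjusted p under 0.05). Usage calls were 1 with the older quasi-likelihood form, 3 by edgeR's gene-level F test and 4 by limma. With at least 5 reads per library there were 15 switches in 56 hosts; with at least 20 reads there were 5 in 32 hosts, 1 of them full, and the median dominant share was 47.6%. For these changes the cause was not tested.

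Leaving out 1 library at a time gave 7 to 20 circRNA calls (2 to 7 higher, 4 to 14 lower) and 0 to 1 usage calls. It gave 16 to 23 calls of host totals (4 to 8 higher, 10 to 15 lower). There were 9 to 16 switches and 2 to 5 full ones in 48 to 52 assessed hosts, and the median dominant share was 41.7% to 44.7%. INTU, LIN54, TBCD and TTC3 each lost their switch without 1 library. DESeq2's Wald test called 26 member circRNAs and 20 host totals.

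Depth limits the description of switches: 22 of the 70 hosts had under 10 reads in a library, and in 13 of the 48 assessed hosts the leader's mean share was under 10 points above the next. The exonic circRNAs analysed are a stretch of a name order, each with a read in Young_D30 replicate 1, so the table totals are not library depths, and shares could differ over a full list. Back-splice reads were not compared with linear RNA of the hosts.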

Other observations

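Some circRNAs had no read in a library where their share in the other libraries of the group would have given at least 10. This comparison was chosen after the values were seen. It held for 13 cases, 12 circRNAs of 9 hosts: 4 in Young_D30 replicate 2, 2 in Young_D30 replicate 3, 5 in Adult_D210 replicate 2 and 2 in Adult_D210 replicate 3. For circRNA12266 of TBCD, 110 reads would have been counted in Adult_D210 replicate 2 at the share of the other libraries, and 0 were. In MCCC1, circRNA11589 had 74, 0 and 45 reads in Young_D30 and 157, 90 and 82 in Adult_D210, although the host had 28 reads in Young_D30 replicate 2, a count of 0 that allows a share of up to 10.7%. In PKD2, circRNA10404 had 92, 80 and 57 reads and then 16, 35 and 0, the last out of 15 host reads, which allows up to 20%. The cause was not tested.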
